A study of Mus musculus with 62 samples.

Results

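The genes described here are 10 components of antigen presentation by major histocompatibility complex (MHC) molecules, chosen by symbol from a list and all found among the 47643 gene rows of the deposited table. They are the class II chains H2-Aa, H2-Ab1 and H2-Eb1, the class II peptide-loading chains H2-DMa and H2-DMb1, the invariant chain Cd74, the class II transactivator Ciita, the class I heavy chains H2-K1 and H2-D1, and B2m, the light chain of class I. RNA of brown adipose tissue, the heat-producing fat, was measured in 62 libraries of 12 groups. Mice had been injected with cachectic melanoma cells (CAC), with non-cachectic melanoma cells (NCAC), or with no tumour cells as a mock control (Con), and tissue was taken 2, 4, 6 or 8 weeks later. Each group had 5 libraries, except CAC at 8 weeks with 7. All mice were female and 2 months old; the series text calls them NCI Ath/nude, an athymic strain, whereas the sample labels give C57BL6/J, and both statements cannot hold. Neither the tumour site nor the melanoma line is named in the labels and the extraction text mentions LLC cells, which belong to no group here. Among the 4-week titles 1 CAC library and 1 Con library both carry the number 56. The comparisons ask how these genes differ with a cachexia-inducing tumour against no tumour, and against a tumour that does not induce it.

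Class I molecules sit on nearly all nucleated cells. A heavy chain pairs with B2m and displays peptides cut by the proteasome, and the gene set is driven in part by the transactivator Nlrc5 and by interferons. Class II molecules are made mainly by dendritic cells, B cells and macrophages. Their α and β chains assemble on the invariant chain Cd74 in the endoplasmic reticulum, H2-DM exchanges the remnant of Cd74 for antigen peptides in endosomes, and Ciita switches the whole class II set on. In adipose tissue class II is best known from resident macrophages and dendritic cells. MHC genes are the most polymorphic of the genome, and their alleles differ between mouse strains.

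H2-K1, H2-DMb1, H2-DMa, H2-Ab1, H2-Aa, H2-Eb1 and H2-D1 lie on chromosome 17 within the MHC, from H2-K1 at chr17:33996017-34000347 to H2-D1 at chr17:35262730-35267499 (mm10, GENCODE M21). B2m is on chromosome 2 (122147686 to 122153083) and Ciita on chromosome 16 (10480059 to 10528418). Promoter windows of 300 bases (RefSeq, GRCm38.p6, from 250 bases before the start to 50 after it) were matched for 7 of the 10 genes, with 9 windows in all. The stretches printed here carry a pair of letter patterns found in genes of both classes, which differed in direction at 6 weeks in the results that follow. Class I and class II promoters are known to share an X box and a Y box. Capitals mark TGANG followed by 18 to 24 bases and ATTGG, which resemble the X2 element and the Y box, and AANNGAAA (or its reverse complement), which resembles an interferon-response element. Matches were searched on both strands, and in H2-Eb1 a pair of overlapping TGANG matches gives 1 longer run of capitals.
B2m: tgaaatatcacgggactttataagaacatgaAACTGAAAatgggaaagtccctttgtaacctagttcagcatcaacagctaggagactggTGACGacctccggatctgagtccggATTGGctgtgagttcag
H2-K1: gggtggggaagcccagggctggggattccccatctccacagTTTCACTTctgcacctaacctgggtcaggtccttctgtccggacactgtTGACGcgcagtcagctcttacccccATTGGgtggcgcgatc
H2-Aa: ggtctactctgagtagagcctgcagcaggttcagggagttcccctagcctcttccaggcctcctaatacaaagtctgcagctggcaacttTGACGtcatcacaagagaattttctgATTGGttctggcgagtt
H2-Eb1: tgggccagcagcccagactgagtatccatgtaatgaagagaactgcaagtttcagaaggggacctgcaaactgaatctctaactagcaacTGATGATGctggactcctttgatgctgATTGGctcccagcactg

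These stretches are B2m chr2:122147519-122147650 on the plus strand, H2-K1 chr17:34000348-34000478 on the minus strand, H2-Aa chr17:34287855-34287987 on the minus strand and H2-Eb1 chr17:34305691-34305824 on the plus strand. Each ends upstream of its gene's first annotated base in GENCODE M21. The spaced TGANG and ATTGG pair was found for B2m, H2-K1, H2-D1, H2-Aa, H2-Eb1 and H2-DMb1, and in neither window of H2-DMa. It occurs in 620 of 32851 promoter windows of the genome, or 1.89%. AANNGAAA was found in B2m, H2-K1, H2-D1, H2-Aa and 1 window of H2-DMa, and is common (23.9% of windows). Of all windows 37.4% hold ATTGG alone. The motifs were picked after these promoters had been read, the letters are those of the reference strain rather than of the mice studied, and a match describes letters only. H2-Ab1, Ciita and Cd74 had no window.

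Deposited values were TPM, shares of a library's transcripts scaled by gene length, so levels can be roughly compared between genes. Between class I heavy chains such as H2-K1 and H2-D1 this is less safe, for reasons given below. In brown adipose tissue class I RNA was far above class II RNA. B2m lay between 372 and 1284 TPM over the 62 libraries with a median of 621 TPM. The heavy chains followed, H2-D1 with a median of 162 TPM and H2-K1 with 110 TPM. Among class II genes Cd74 had a median of 66.9 TPM, H2-Eb1 32.4 TPM, H2-Aa 27.2 TPM and H2-Ab1 19.99 TPM. The loading chains were rarer, at 3.75 TPM for H2-DMa and 1.92 TPM for H2-DMb1. Ciita reached 1 TPM in 1 library of 62 and had a median of 0.337 TPM, so it was not tested with the other genes. The remaining 9 genes passed the filter of at least 1 TPM in at least 5 libraries, which 12581 genes passed.

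The read depth of the libraries is not known from TPM. Mitochondrial transcripts took 39.6% to 66.1% of the TPM of a library, and no 2 libraries were duplicates (highest correlation 0.990). At 8 weeks the mitochondrial share was 44.27% to 55.55% in CAC, below Con (59.86% to 65.53%) and NCAC (56.04% to 61.99%) without overlap. At 6 weeks it was 50.86% to 53.52% in CAC and 57.06% to 66.11% in Con, without overlap. In NCAC of that week it was 48.38% to 61.83% and overlapped with CAC. The part of this share in the TPM differences between the arms was not tested. Markers of the labelled tissue were abundant: the sum of 8 brown adipocyte genes was 17860 to 31230 TPM in CAC at 8 weeks and 18150 to 22730 TPM in Con at 8 weeks. Of 9 T cell genes 7 stayed below 1 TPM in every library, with 1.44 TPM as the highest single value, and Ifng, the T and natural killer cell cytokine that induces both MHC classes, never exceeded 0.121 TPM.

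Within libraries, MHC genes stood in ratios that fell into separate levels, and these levels cut across the study's groups. H2-Q10, a secreted class I-like chain, was at most 2.64 TPM in 26 libraries and at least 25.6 TPM in the other 36, with none in between. In the 26 libraries the ratio of H2-K1 to H2-D1 had a median of 0.450, and in the 36 it had a median of 0.780. In 5 libraries, all with high H2-Q10, H2-K1 was 4.36 to 12.6 times H2-D1: libraries 1 and 2 of CAC at 2 weeks, library 2 of NCAC at 2 weeks, library 5 of NCAC at 4 weeks and library 4 of Con at 6 weeks. In these 5 the ratio of H2-Eb1 to H2-Aa was 0.179 to 0.773, against 1.22 to 1.68 in the 31 other libraries with high H2-Q10. H2-Ea-ps, the class II Eα gene that C57BL/6 mice do not express, was below 1 TPM in 8 libraries and at least 2.84 TPM in 54.

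**Figure D1:**
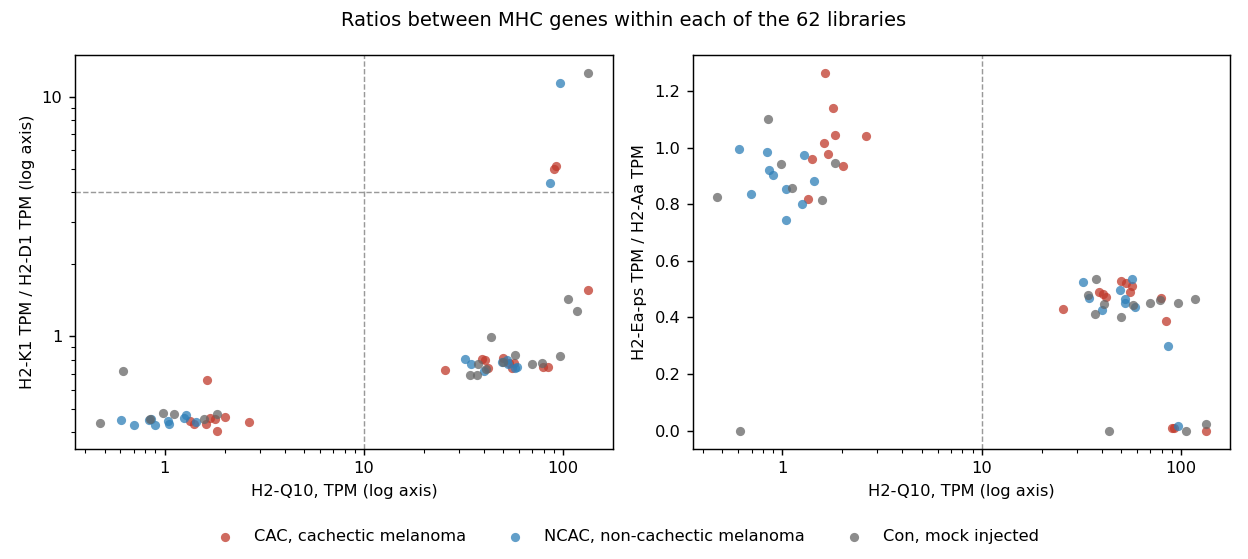
Each of the 62 libraries is 1 dot, with H2-Q10 in TPM on the log x axis and, on the y axes, the ratio of H2-K1 to H2-D1 (left, log axis) and of H2-Ea-ps to H2-Aa (right); dashed lines mark 10 TPM of H2-Q10 and a ratio of 4. The libraries form a cluster below 2.64 TPM of H2-Q10, a cluster above 25.6 TPM, and 5 libraries with H2-K1 more than 4 times H2-D1; dots of all 3 arms occur in each.

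The levels were unevenly spread over the groups that are compared. H2-Q10 was low in 4 of 5 CAC libraries at 6 weeks, 1 of 5 NCAC libraries and 0 of 5 Con libraries of that week. At 8 weeks it was low in 4 of 7 CAC, 3 of 5 NCAC and 2 of 5 Con libraries. Reads of H2-K1, H2-D1 and the other class I heavy chains can be exchanged between these near-identical genes by an aligner, and alleles that differ from the reference can be counted less well; what sets the levels was not tested. Results are therefore given with H2-Q10 (above or below 10 TPM) as a covariate, and without the 5 libraries, where either changes them.

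At 8 weeks B2m, H2-K1 and H2-D1 were higher in CAC than in Con and than in NCAC, with differences of 0.89 to 1.43 on the log2(TPM + 1) scale, while none of the 6 tested class II genes passed the test. These 3 of 9 genes stand beside 52.1% of all genes called higher against Con and 37.3% against NCAC, so their count is below the background, and H2-K1 against Con was not called after rescaling by median ratios (adjusted p = 0.196). At 6 weeks H2-D1 and B2m were higher than in Con, H2-Aa was lower than in Con, and H2-Aa, H2-Ab1, H2-Eb1 and Cd74 were lower than in NCAC. At 2 and 4 weeks no MHC gene passed the test between the arms.

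B2m, which every class I molecule needs to leave the endoplasmic reticulum, was 757 TPM in the lowest, 993 TPM in the median and 1284 TPM in the highest of the 7 CAC libraries at 8 weeks. The 5 Con libraries had 657, 488, 469, 572 and 512 TPM. The 5 NCAC libraries had 404, 611, 505, 465.6 and 617 TPM. Every CAC library was above every Con and NCAC library. Statements on overlap, here and below, are about TPM before rescaling. The share of all genes that separate in this way was not counted. The difference was 0.89 ± 0.17 (SE) on the log2 scale against Con (limma, Benjamini-Hochberg adjusted p = 2.77e-05) and 0.95 ± 0.17 against NCAC (adjusted p = 1.65e-05).

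H2-K1, one of the classical heavy chains, was 165 to 291 TPM in CAC at 8 weeks with a median of 217 TPM. Con libraries of that week had 97.0, 97.9, 86.7, 105 and 114 TPM, and NCAC libraries 64.9, 77.9, 83.1, 65.1 and 109 TPM. Here too the CAC libraries did not overlap with the others. The log2 difference was 1.09 ± 0.43 (SE) against Con (limma, adjusted p = 0.0288) and 1.43 ± 0.43 against NCAC (adjusted p = 0.00719). Its standard error comes from all 62 libraries, the 5 with very high H2-K1 among them. Without those 5 the same differences had adjusted p-values of 5.10e-05 and 9.23e-07 in limma. The 5 were picked by H2-K1 itself and none is of 8 weeks. Their removal was bound to shrink the spread, so these p-values are no further support. Against Con the call of H2-K1 was lost after rescaling by median ratios (0.73, adjusted p = 0.196) and without library 2 of CAC (adjusted p = 0.0563), library 1 of Con (adjusted p = 0.0527) or library 3 of Con (adjusted p = 0.0569). With the replicate number as a block it was 1.04 (adjusted p = 0.0753).

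H2-D1, the other classical heavy chain of this pair, was 134 TPM in the lowest, 329 TPM in the median and 662 TPM in the highest CAC library at 8 weeks. Con libraries had 203, 98.2, 104, 137 and 158 TPM. NCAC libraries had 80.7, 174, 195, 145 and 137 TPM. CAC overlapped with the other groups through library 3 alone; the remaining 6 CAC libraries were at 296 TPM or more. The log2 difference was 1.24 ± 0.32 (SE) against Con (limma, adjusted p = 0.00128) and 1.19 ± 0.32 against NCAC (adjusted p = 0.00319). Within the libraries of low H2-Q10 the range was 329 to 662 TPM in 4 CAC libraries and 158 to 203 TPM in 2 Con libraries, and within those of high H2-Q10 it was 134 to 304 TPM in 3 CAC and 98.2 to 137 TPM in 3 Con libraries.

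**Figure D2:**
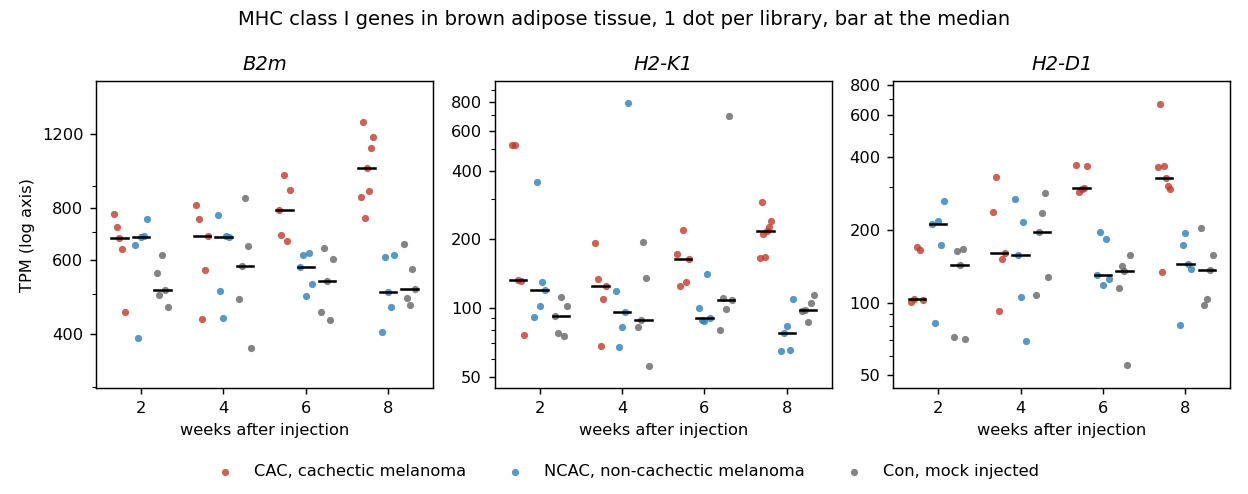
TPM (log axis) of B2m, H2-K1 and H2-D1 in each library against weeks after injection, with dots for libraries coloured by arm and a black bar at the group median. At 8 weeks all 7 CAC dots lie above all Con and NCAC dots for B2m (757 to 1284 TPM) and H2-K1 (165 to 291 TPM), and 6 of 7 do so for H2-D1; single H2-K1 dots above 350 TPM are the 5 libraries whose H2-K1 exceeds 4 times H2-D1.

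No MHC gene was called lower against Con at 8 weeks, beside 1.97% of all 12581 genes. The median of all genes was shifted by 0.28 in this comparison. After rescaling by median ratios, which sets that median to about 0, 13.5% of genes were called higher and 12.8% lower, and B2m (0.53, adjusted p = 0.00346) and H2-D1 (0.89, adjusted p = 0.0207) were called higher. Against NCAC at 8 weeks 0 of 9 were lower, beside 1.98% of all genes, with a median shift of 0.21. After rescaling the 3 genes were still called, beside 12.9% higher and 11.5% lower of all genes.

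At 6 weeks H2-D1 was the class I gene with the largest difference. The CAC libraries had 373, 288, 295, 299 and 368 TPM of H2-D1, the Con libraries 116, 141, 135, 55.3 and 157 TPM, and the NCAC libraries 130, 196, 119, 184 and 125 TPM. No CAC library overlapped with either group. The log2 difference was 1.49 ± 0.35 (SE) against Con (limma, adjusted p = 0.00196) and 1.13 ± 0.35 against NCAC (adjusted p = 0.0329). With H2-Q10 as a covariate the difference was 0.89 against Con (adjusted p = 0.0389) and 0.67 against NCAC (adjusted p = 0.181), where it was no longer called. Against NCAC the call was also lost without library 1, 4 or 5 of CAC or library 1, 3 or 5 of NCAC, with adjusted p-values of 0.052 to 0.0888.

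B2m at 6 weeks was 792, 691, 958, 666 and 882 TPM in CAC and 451, 642, 536, 432 and 603 TPM in Con. The groups did not overlap, and the log2 difference was 0.58 ± 0.18 (SE; limma, adjusted p = 0.0174). It was 0.37 (adjusted p = 0.13) after rescaling and 0.54 (adjusted p = 0.0608) with the H2-Q10 covariate, and 0.53 (adjusted p = 0.0578) without library 1 of Con. Against NCAC the difference was 0.48 ± 0.18 (adjusted p = 0.0903). H2-K1 differed by 0.12 ± 0.46 against Con (adjusted p = 0.872), in a comparison whose Con group holds 1 of the 5 libraries, at 697 TPM beside 79.9 to 110 TPM in the other 4. Without the 5 libraries H2-K1 differed by 0.68 (limma, adjusted p = 0.0389). The Con library was left out for its high H2-K1, so this value cannot decide whether H2-K1 differed.

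The class II genes went the other way at 6 weeks. Cd74, which escorts new class II chains, was 23.2, 58.3, 50.5, 54.5 and 39.5 TPM in CAC. NCAC libraries of that week had 114, 112, 77.5, 246 and 72.4 TPM, all above the highest CAC library. Con libraries had 48.6, 97.7, 72.3, 53.1 and 278 TPM and overlapped with CAC. The log2 difference was -1.36 ± 0.40 (SE) against NCAC (limma, adjusted p = 0.0246) and -1.01 ± 0.40 against Con (adjusted p = 0.0619).

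H2-Aa, the α chain of the I-A molecule, was 7.59, 20.7, 18.1, 18.9 and 16.2 TPM in CAC at 6 weeks. NCAC libraries had 43.4, 42.7, 31.7, 93.3 and 29.4 TPM, and Con libraries 20.3, 41.7, 28.8, 30.8 and 126 TPM. CAC lay below all NCAC libraries and met the lowest Con library. The log2 difference was -1.45 ± 0.41 (SE) against NCAC (limma, adjusted p = 0.0171) and -1.30 ± 0.41 against Con (adjusted p = 0.0188). H2-Ab1, its β chain, was 8.04, 15.9, 14.3, 15.4 and 14.2 TPM in CAC, 32.9, 34.4, 23.8, 76.8 and 20.4 TPM in NCAC, and 15.98, 29.4, 22.1, 15.98 and 86.1 TPM in Con. All CAC values were the lowest, with a log2 difference of -1.28 ± 0.38 against NCAC (adjusted p = 0.0255) and -0.99 ± 0.38 against Con (adjusted p = 0.0547).

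H2-Eb1, the β chain of the I-E molecule, was 8.91, 24.2, 22.9, 21.9 and 17.0 TPM in CAC at 6 weeks, 60.2, 49.3, 41.1, 129 and 37.7 TPM in NCAC, and 27.4, 53.7, 39.6, 10.4 and 166 TPM in Con. CAC was below every NCAC library; the Con library at 10.4 TPM is 1 of the 5 that stand apart. The log2 difference was -1.61 ± 0.50 (SE) against NCAC (limma, adjusted p = 0.0318) and -1.12 ± 0.50 against Con (adjusted p = 0.0906). Without the 5 libraries it was -1.59 against Con (limma, adjusted p = 0.0103). The Con library left out was the lowest of its group for H2-Eb1. Its removal was bound to make the difference larger, so this value is no further support. The peptide exchangers H2-DMa (-0.73 ± 0.24, adjusted p = 0.0501) and H2-DMb1 (-0.79 ± 0.28, adjusted p = 0.0783) missed the threshold against NCAC. After rescaling both passed, at -0.79 (adjusted p = 0.017) and -0.83 (adjusted p = 0.0404). Ciita was 0.114, 0.336, 0.266, 0.2603 and 0.2504 TPM in CAC and 0.334 to 0.789 TPM in NCAC, and in a fit without the filter it differed by -0.29 ± 0.15 (adjusted p = 0.289).

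**Figure D3:**
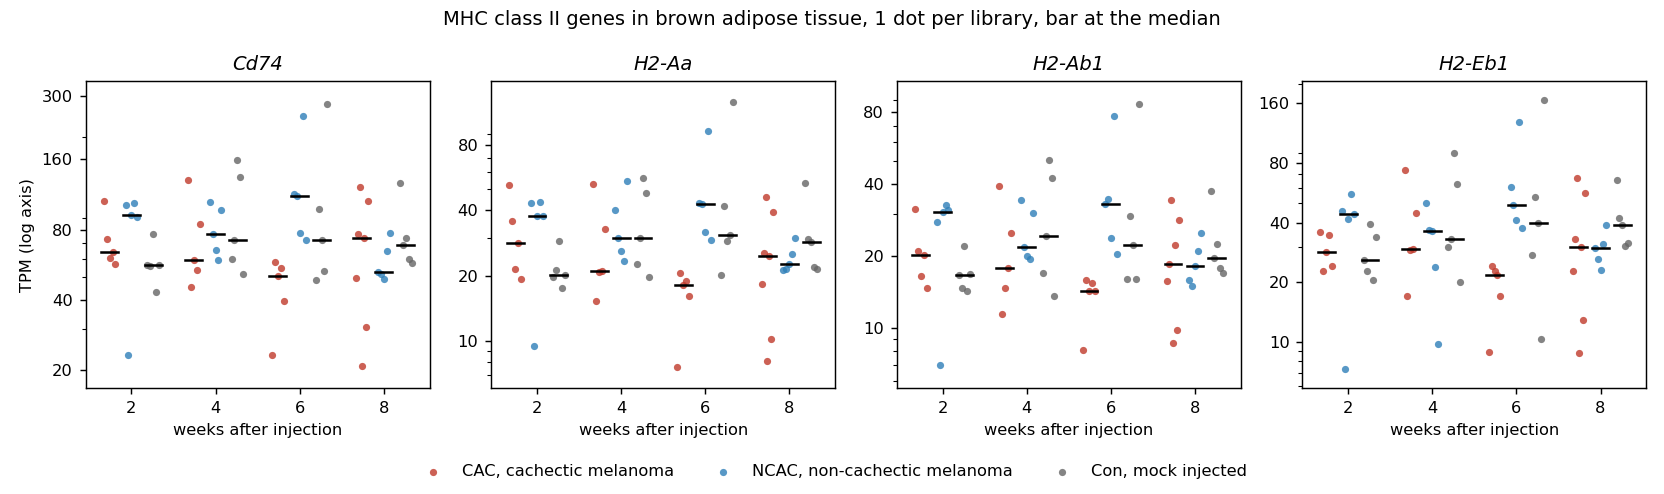
TPM (log axis) of Cd74, H2-Aa, H2-Ab1 and H2-Eb1 in each library against weeks after injection, coloured by arm, with a black bar at the group median. At 6 weeks the CAC dots (Cd74 23.2 to 58.3 TPM) lie below the NCAC dots (72.4 to 246 TPM) in each panel, while at 8 weeks the 3 arms overlap in each.

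Against NCAC at 6 weeks, 4 of 9 tested genes were called lower and 1 higher, beside 1.95% lower and 5.82% higher of all genes. After rescaling it was 6 lower and 1 higher, beside 4.51% and 5.80%. Against Con at 6 weeks 1 was called lower and 2 higher, beside 0.978% and 20.7% of all genes, with a median shift of 0.18; after rescaling 3 were lower and 1 higher, beside 2.93% and 5.36%. The class II calls rest on few libraries. Library 5 of Con and library 4 of NCAC at 6 weeks had the highest class II levels of the series, with Cd74 at 278 and 246 TPM. Without both, H2-Aa differed from Con by -0.89 (adjusted p = 0.111), and Cd74 differed from NCAC by -1.08 (adjusted p = 0.0656); no class II gene was then called against Con and 1 was called against NCAC. Leaving out library 1 of CAC, the lowest, ended all 4 class II calls against NCAC (H2-Aa adjusted p = 0.0927, Cd74 0.115, H2-Ab1 0.104, H2-Eb1 0.13), as did leaving out library 4 of NCAC alone (0.0689, 0.0927, 0.102 and 0.1). H2-Aa against Con was lost without library 1 of CAC (-1.06, adjusted p = 0.0727). Under the H2-Q10 covariate H2-Aa alone was called lower against NCAC (-1.37, adjusted p = 0.0459), and none against Con.

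At 8 weeks the class II genes of CAC were spread widely around the levels of the other arms. Cd74 was 20.9 TPM in the lowest, 73.6 TPM in the median and 122 TPM in the highest CAC library. Con libraries had 126, 68.5, 73.6, 59.9 and 57.5 TPM and NCAC libraries 52.5, 51.6, 48.9, 65.0 and 77.2 TPM. The groups overlapped, and the log2 difference was -0.33 against Con with a 95% interval of -1.06 to 0.40 (limma, adjusted p = 0.463). Over the 6 tested class II genes the differences against Con ran from -0.55 for H2-Eb1 (95% interval -1.45 to 0.34) to -0.18 for H2-DMa (-0.62 to 0.26). After rescaling by median ratios all 6 estimates lay further below 0, and none was called. They ran from -0.90 for H2-Eb1 (-1.77 to -0.02, limma, adjusted p = 0.131) to -0.46 for H2-DMa (-0.87 to -0.04, adjusted p = 0.104). H2-Aa then differed by -0.80 (-1.51 to -0.10, adjusted p = 0.0932). H2-Aa ranged from 8.11 to 46.4 TPM within CAC, H2-Ab1 from 8.61 to 34.2 TPM and H2-Eb1 from 8.85 to 67.2 TPM, and in each case library 4 was the lowest and library 3 the highest.

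**Figure D4:**
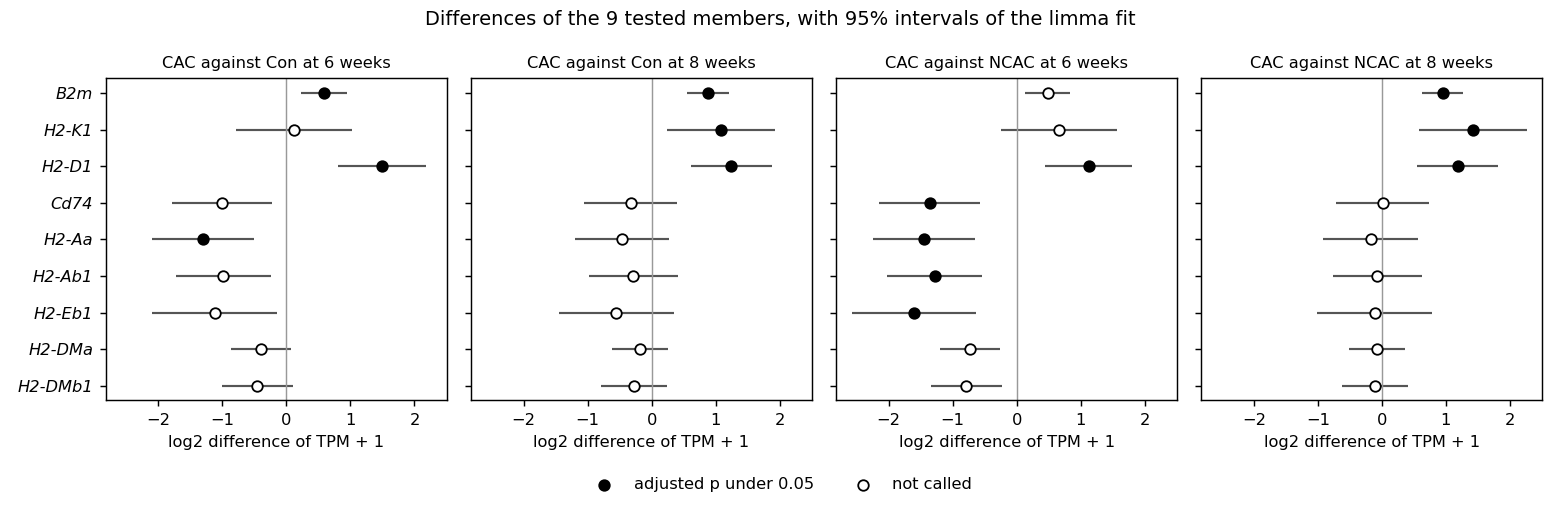
The log2 difference of TPM + 1 (x axis) of the 9 tested genes (rows) for CAC against Con and against NCAC at 6 and 8 weeks; lines are 95% intervals of the limma fit, filled dots have an adjusted p under 0.05 and open dots do not. At 8 weeks the 3 class I genes lie to the right of 0 (0.89 to 1.43). The intervals of the 6 class II genes include 0 at 8 weeks, and at 6 weeks these genes lie to the left (-0.40 to -1.61).

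Earlier weeks and the tumour without cachexia gave no calls. At 2 weeks 0 of 9 genes were called between CAC and Con, where 4.63% of all genes were, and 0 between CAC and NCAC, where 0.0397% were. At 4 weeks the counts were 0 beside 3.85% and 0 beside 0.588%. At an unadjusted p under 0.05 limma gave 1 gene in these 4 comparisons, H2-K1 against Con at 2 weeks (1.17 ± 0.46, adjusted p = 0.151). That difference rested on libraries 1 and 2 of CAC at 517 and 519 TPM. The other 3 had 133, 132 and 76.2 TPM, beside 75.2 to 111 TPM in Con. Without the 5 libraries, which were picked by H2-K1 itself, the difference was 0.28 (limma, adjusted p = 0.75). NCAC and Con differed in 0 of 9 genes at each of the 4 weeks, with 0 at an unadjusted p under 0.05, beside 0%, 0.00795%, 0% and 0% of all genes. Libraries 3 and 4 of Con at 4 weeks stood apart, with mitochondrial shares of 39.6% and 39.7% beside 57.1% to 58.7% in the rest of that group. Their Cd74 was 159 and 134 TPM, beside 51.4 to 72.1 TPM.

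Over time, B2m and H2-D1 rose within the cachectic arm. From 2 to 8 weeks the median of B2m went from 677 to 993 TPM in CAC (log2 difference 0.63 ± 0.17 SE, limma, adjusted p = 0.00565) and that of H2-D1 from 104 to 329 TPM (1.36 ± 0.32, adjusted p = 0.00188). H2-K1 differed by 0.05 ± 0.43 (limma, adjusted p = 0.944) between these weeks. Of the 5 libraries with very high H2-K1, CAC at 2 weeks holds libraries 1 and 2, at 517 and 519 TPM. Its libraries 3, 4 and 5 had 133, 132 and 76.2 TPM, beside 165 to 291 TPM in CAC at 8 weeks. H2-Q10 was low in 0 of 5 CAC libraries at 2 weeks and in 4 of 7 at 8 weeks. Among CAC libraries of high H2-Q10, H2-D1 was 101 to 171 TPM in 5 at 2 weeks. In the 3 of 8 weeks it was 134 to 304 TPM, so the ranges overlapped. B2m and H2-D1 were 2 of 9 tested genes, beside 15.0% of all genes called higher. In NCAC and in Con 0 of 9 changed from 2 to 8 weeks, also at an unadjusted p under 0.05, beside 0% and 0.0318% of all genes. The difference between CAC and NCAC grew from 2 to 8 weeks by 0.89 ± 0.25 for B2m (adjusted p = 0.0224) and by 1.69 ± 0.47 for H2-D1 (adjusted p = 0.0251), 2 of 9 genes beside 4.60% called higher of all. The first was lost with a replicate block (0.81, adjusted p = 0.0798) and without library 5 of CAC at 2 weeks (adjusted p = 0.071), library 5 of NCAC at 2 weeks or library 1 of NCAC at 8 weeks. The second was lost with the H2-Q10 covariate (1.26, adjusted p = 0.0529) and without any 1 of 5 libraries (adjusted p 0.0512 to 0.0702). The growth against Con was 0.60 ± 0.25 for B2m (adjusted p = 0.0891) and 1.13 ± 0.47 for H2-D1 (adjusted p = 0.0989), so 0 of 9 were called by limma beside 10.2% of all genes, and 2 at an unadjusted p under 0.05. Without library 3 of CAC at 8 weeks both were called, at 0.67 (adjusted p = 0.0443) and 1.34 (adjusted p = 0.0311). CAC libraries enter all of these differences, so they are not independent of each other.

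Genes for peptide supply and loading of class I were called higher at 8 weeks, fewer of them after rescaling. Of 14 genes for peptide supply and loading, 14 were called higher in CAC than in Con and 0 lower, with a median of 0.53 beside 0.28 over all genes, of which 52.1% were called higher. After rescaling 6 were higher and 0 lower, with a median of 0.19, beside 13.5% of all genes higher. Nlrc5, the transactivator of class I, was 3.21 to 8.94 TPM in CAC and 1.83 to 3.28 TPM in Con, which met only at CAC library 3 (1.18 ± 0.16 SE, limma, adjusted p = 4.67e-08; 0.90 after rescaling). Tapbp, the tapasin that bridges class I to the peptide transporter, was 48.9 to 65.2 TPM in CAC and 28.3 to 34.7 TPM in Con without overlap (0.79 ± 0.13, adjusted p = 2.83e-06). The immunoproteasome subunit Psmb8 rose by 0.82 ± 0.22 (adjusted p = 0.00193) and the peptide trimmer Erap1 by 0.66 ± 0.11 (adjusted p = 7.86e-06). Tap1, a subunit of the transporter itself, rose by 0.43 ± 0.18 (adjusted p = 0.0392), a call that was lost after rescaling (adjusted p = 0.475).

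Among 14 further class I-like heavy chains 8 were called higher against Con at 8 weeks and 0 lower, a share near the 52.1% of all genes. After rescaling 4 were higher, beside 13.5% of all genes. H2-T22, a non-classical chain seen by γδ T cells, was 31.3 to 50.04 TPM in CAC and 14.5 to 19.8 TPM in Con (1.26 ± 0.17 SE, limma, adjusted p = 5.17e-08). H2-T23, the Qa-1 chain read by natural killer cell receptors, was 19.95 to 41.4 TPM in CAC and 13.0 to 17.4 TPM in Con (0.90 ± 0.22, adjusted p = 0.000793). H2-K2, a further class I gene of the MHC, was 0.648 to 3.75 TPM in CAC and 0.0751 to 1.06 TPM in Con (0.92 ± 0.32, adjusted p = 0.0139). Both H2-T22 and H2-T23 were without overlap. H2-Q10 itself did not pass (-0.18 ± 1.34, adjusted p = 0.921). At 6 weeks 7 of 14 loading genes and 3 of 14 heavy chains were higher than in Con, the latter near the 20.7% of all genes. After rescaling it was 4 and 1, beside 5.36% of all genes. Nlrc5 at 6 weeks was 4.04 to 6.04 TPM in CAC and 1.49 to 2.63 TPM in Con.

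Of 18 other genes of class II control and processing that were found, 14 were tested and 8 were higher in CAC than in Con at 8 weeks, with 0 lower, a share near the 52.1% of all genes. After rescaling 3 were higher and 1 lower, beside 13.5% and 12.8%. The risers were led by endosomal proteases: cathepsin S (Ctss), which trims Cd74, rose by 1.54 ± 0.32 (SE, limma, adjusted p = 0.00012), the asparagine endopeptidase Lgmn by 1.351 ± 0.14 (adjusted p = 2.67e-10) and cathepsin L (Ctsl) by 1.26 ± 0.16 (adjusted p = 9.27e-09). H2-DMb2, a further DM β chain, was 0.212 to 1.957 TPM in CAC and 0.599 to 2.42 TPM in Con at 8 weeks (-0.27 ± 0.24, adjusted p = 0.336), and at 6 weeks it fell against NCAC (-0.82, adjusted p = 0.0351). Rfx5, which recruits Ciita to class II promoters, rose by 0.31 ± 0.12 (adjusted p = 0.0308), a call that was lost after rescaling (0.05, adjusted p = 0.737).

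Interferon genes were mixed at 8 weeks. Of 16 tested genes of interferon gamma signalling 6 were higher in CAC than in Con and 1 lower, beside 52.1% and 1.97% of all genes. After rescaling 3 were higher and 3 lower, beside 13.5% and 12.8%. The receptor chain Ifngr1 rose by 1.17 ± 0.16 (SE, limma, adjusted p = 1.49e-07) and the kinase Jak2 by 0.61 ± 0.14 (adjusted p = 0.000262), while Cxcl9, an interferon gamma-induced chemokine, fell by 0.83 ± 0.24 (adjusted p = 0.00331). Of 14 tested genes of the type I response 4 were higher and 0 lower, led by Oas2 (1.27 ± 0.23, adjusted p = 1.57e-05) and Irf7 (1.10 ± 0.24, adjusted p = 0.000157); after rescaling 2 were. As for the interferon gamma genes, the share called higher on TPM was below that of all genes. Of 3 tested co-stimulation genes 2 were higher, among them Cd86 (0.71 ± 0.12, adjusted p = 3.34e-06) and Icosl (0.43 ± 0.14, adjusted p = 0.00846). The other, the inhibitory ligand Cd274, differed by -0.53 ± 0.27 (adjusted p = 0.0956). After rescaling Cd86 was higher and Cd274 lower (-0.86, adjusted p = 0.0218).

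Markers of cells that carry MHC also differed between the arms, and their part in the results was not tested. In bulk tissue fewer cells of a type and less RNA per cell cannot be told apart. All 10 of 10 macrophage markers were higher in CAC than in Con at 8 weeks, with a summed level of 251 to 613 TPM in CAC, 127 to 165 TPM in Con and 99.4 to 184 TPM in NCAC. The largest changes were those of the scavenger receptor Cd163 (2.53 ± 0.28, limma, adjusted p = 8.18e-10) and the mannose receptor Mrc1 (1.79 ± 0.21, adjusted p = 2.01e-09). At 6 weeks 6 of 10 were higher than in Con, beside 20.7% of all genes (5.36% after rescaling). Their sums were then 345 to 416 TPM in CAC, 119 to 387 TPM in Con and 137 to 425 TPM in NCAC. Already at 2 weeks 7 of 10 were higher, also after rescaling, beside 4.58% of all genes (4.05% after rescaling). In that comparison 0 of 9 MHC genes were called. At 4 weeks 1 of 10 was higher (3 after rescaling), beside 0.819% and 3.14%. Of 9 dendritic cell genes 3 were tested and 2 rose at 8 weeks, Cd209a and Clec10a, which macrophages also express; Flt3 stayed at or below 0.161 TPM in every library. The other tested dendritic cell gene, Zbtb46, was lower after rescaling (-0.44, adjusted p = 0.00219). Of 8 B cell genes 4 were tested and 1 fell at 8 weeks (3 after rescaling), Ighm (-1.45 ± 0.37, limma, adjusted p = 0.00117), and their sum was 6.31 to 19.3 TPM in CAC and 21.7 to 66.0 TPM in Con. Of 3 leukocyte genes 2 rose, Laptm5 (1.197 ± 0.21, adjusted p = 7.37e-06) and Ptprc (0.50 ± 0.13, adjusted p = 0.0015), the latter not after rescaling (adjusted p = 0.0548). Of 8 brown adipocyte genes 3 were higher and 2 lower at 8 weeks, of 5 endothelial genes 3 were higher and 1 lower, and of 6 epithelial genes 4 were lower. After rescaling these counts were 2 and 3, 1 and 1, and 4. For the 8-week counts the background is 52.1% of genes higher and 1.97% lower, and 13.5% and 12.8% after rescaling. The macrophage count of 8 weeks stayed at 10 of 10 after rescaling. The 6 skeletal muscle genes were all higher in CAC than in Con at 2 weeks, beside 4.58% of all genes, and none passed at 8 weeks. The 8 natural killer cell genes summed to at most 4.22 TPM in any library of 6 or 8 weeks.

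Set beside the macrophage markers, Cd74 had a lower median in CAC than in Con at all 4 weeks. The ratio of Cd74 to the sum of the 10 markers was 0.29 to 0.406 in CAC at 2 weeks and 0.419 to 0.706 in Con, without overlap, and 0.247 to 0.558 in NCAC, which overlapped with both. At 4 weeks the medians were 0.320 in CAC, 0.466 in Con and 0.468 in NCAC, and the groups overlapped. It was 0.0645 to 0.166 in CAC at 6 weeks, 0.353 to 0.718 in Con and 0.396 to 0.578 in NCAC. At 8 weeks it was 0.0528 in the lowest, 0.125 in the median and 0.486 in the highest CAC library, against 0.412 to 0.767 in Con and 0.379 to 0.528 in NCAC. Of the CAC libraries at 6 and 8 weeks only library 3 at 8 weeks, with the lowest macrophage sum (251 TPM) and the highest Cd74 (122 TPM) of its group, lay among the ratios of the other arms. This ratio was chosen after its values had been seen and carries no test.

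**Figure D5:**
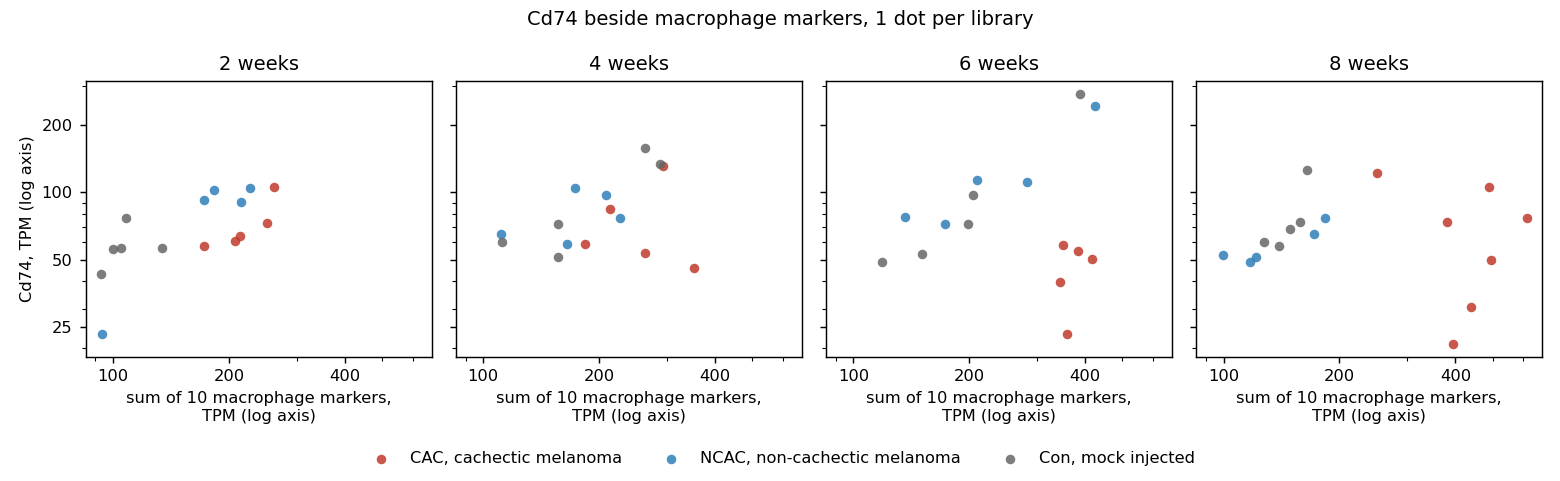
Cd74 (TPM, log y axis) against the summed TPM of 10 macrophage markers (log x axis), 1 panel per week and 1 dot per library, coloured by arm. At 6 and 8 weeks the CAC dots lie to the right of most others (345 to 416 and 251 to 613 TPM) without lying higher. At 6 weeks Con library 5 (387 TPM) and NCAC library 4 (425 TPM) lie among or beyond them. Of the CAC dots of both weeks 11 of 12 have a ratio of 0.217 or less, while the Con and NCAC dots have ratios of 0.353 or more.

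The class II genes varied closely together over the 62 libraries, and the class I genes did so less. After group means were removed, Cd74 correlated with H2-Aa at r = 0.98, with Ciita at 0.84 and with the macrophage gene Adgre1 at 0.77, but with B2m at 0.49, H2-D1 at 0.23 and H2-K1 at 0.11. B2m correlated with Nlrc5 at 0.69 and with H2-D1 at 0.64, but with H2-K1 at 0.31, below its 0.54 with H2-Ab1. H2-K1 and H2-D1 correlated at -0.25. The values for H2-K1 and H2-D1 span both levels of H2-Q10 and the libraries with H2-K1 above 4 times H2-D1. Within a level the ratio of H2-K1 to H2-D1 varied less. It was 0.4046 to 0.7182 in the 26 libraries of low H2-Q10. In the 31 of high H2-Q10 with H2-K1 at most 4 times H2-D1 it was 0.6896 to 1.57. Correlations within a level were not computed. The correlations given here are descriptions over libraries that share a scale. The genes most like the mean of H2-Aa, H2-Ab1, H2-Eb1 and Cd74 over the 62 libraries were Mgl2 (r = 0.77), Tmsb10 (0.72), Ly6e (0.66), Retnla (0.65) and Ephx1 (0.64). Those most like the mean of H2-K1, H2-D1 and B2m were H2-T22 (0.87), H2-T23, Mapk6, Psmb8 and Cfb (each 0.85).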

How the data were processed

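RNA of brown adipose tissue was extracted with Trizol and made into stranded mRNA libraries, per the labels' protocols. The authors deposited 1 table of TPM for 62 libraries on genome build mm10, per the submitters' processing notes; the aligner, counter and annotation are not given in the sources used here, and read depth is unknown. TPM are not counts, so log2(TPM + 1) was fitted with limma 3.58.1 in R 4.3.3 (1 mean for each of 12 groups, trended variance, all 62 libraries) for the 12581 genes that reached 1 TPM in 5 or more libraries. P-values come from limma and were Benjamini-Hochberg adjusted within each of 17 comparisons over all genes tested; a gene was called at an adjusted p under 0.05. The script was tested on simulated data. All 10 members are named; of each other list at least the 2 called genes with the largest change are named, and the 5 genes most correlated with each class among those averaging at least 5 TPM (the values of 1 listed gene are not reported here); the members and lists were chosen with earlier results of these data known. The labels' protocols call the libraries biological replicates. Libraries sharing a replicate number did not deviate together in all 5 pairs of any comparison. Alternatives were another pseudocount (0.1), no filter, a filter at 5 TPM, median-of-ratios rescaling, quantile normalization, library weights, a replicate block, only the groups compared, and each library left out. Chosen after seeing the data were the H2-Q10 covariate (above or below 10 TPM) and leaving out libraries that stood apart.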

Additional observations from a re-analysis of the deposited data

Results flagged for a closer look

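In 29 of 120 sets of libraries, 1 set for each gene and group, the highest or lowest library lay far from the rest of its group. Chance alone gives about 1 in 20 for independent sets of normally distributed values. The class II genes vary together and 1 library is counted for several of them, so the 29 sets are not independent. Library 5 of Con at 6 weeks stood above its group for H2-Aa (126.4 TPM), H2-Ab1 (86.13 TPM), H2-Eb1 (165.5 TPM), H2-DMa (10.06 TPM), H2-DMb1 (7.692 TPM), Cd74 (277.8 TPM) and Ciita (2.094 TPM). Library 4 of NCAC at 6 weeks did so for H2-Aa (93.26 TPM), H2-Ab1 (76.78 TPM), H2-Eb1 (128.6 TPM), H2-DMb1 (8.021 TPM), Cd74 (245.5 TPM) and H2-K1 (141.6 TPM). Library 1 of Con at 8 weeks did so for H2-Aa (53.78 TPM), H2-Ab1 (37.17 TPM), H2-DMb1 (4.077 TPM), Cd74 (126.4 TPM) and Ciita (0.9409 TPM).

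Library 2 of NCAC at 2 weeks lay below its group for H2-Aa (9.452 TPM), H2-Ab1 (6.974 TPM), H2-Eb1 (7.309 TPM), H2-DMb1 (1.067 TPM), Cd74 (23.14 TPM) and B2m (391.0 TPM), and above it for H2-K1 (357.9 TPM). Library 1 of CAC at 6 weeks lay below its group for H2-Ab1 (8.04 TPM) and H2-DMb1 (0.7412 TPM). H2-K1 was far above the group in library 5 of NCAC at 4 weeks (791.8 TPM) and library 4 of Con at 6 weeks (696.9 TPM).

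The difference between CAC and NCAC grew from 2 to 8 weeks by 1.69 on the log2 scale for H2-D1 (limma, adjusted p = 0.0251) and by 0.89 for B2m (adjusted p = 0.0224).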

How the results depend on the processing

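No called value changed sign under any alternative run. Of 3358 gene values under alternatives 3267 kept their side of the threshold and their direction or were uncalled in both, 52 lost a call and 39 gained one. The counts of called members depended on the setting at 6 weeks. Lower against Con (1 as reported) became 2 with the filter at 5 TPM, 3 after median-of-ratios rescaling and after quantile normalization, 4 with library weights, 0 with only the groups compared, 0 with the H2-Q10 covariate, 4 without the libraries whose H2-K1 exceeded 4 times H2-D1, 0 without Con library 5 and NCAC library 4 of 6 weeks, and 0 to 4 with 1 library left out. Higher against Con (2) became 1 after rescaling, after quantile normalization and with the H2-Q10 covariate, and 1 to 2 with 1 library left out. Higher against NCAC at 6 weeks (1) became 0 without the filter, 2 with library weights, 3 with only the groups compared, 0 with the H2-Q10 covariate and 0 to 1 with 1 library left out. Lower against NCAC at 6 weeks (4) became 1 with the H2-Q10 covariate, 1 without Con library 5 and NCAC library 4, and 0 to 5 with 1 library left out. Higher against Con at 2 weeks (0) became 1 with library weights and 0 to 1 with 1 library left out. The change of CAC against Con from 2 to 8 weeks (0) gave 2 with library weights and 0 to 2 with 1 library left out, and that against NCAC (2) gave 1 with a replicate block, 1 with only the groups compared, 1 with the H2-Q10 covariate and 0 to 2 with 1 library left out. At 8 weeks leaving out 1 library gave 2 to 3 genes higher than in Con and 3 higher than in NCAC. The cause of these moves was not tested.

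Replicate numbers are shared between groups, and the main fit used no pairing. The correlation of same-numbered libraries ran from -0.389 to 0.484, and no comparison had all 5 pairs above 0.1. CAC against Con and CAC against NCAC at 4 weeks each had 3 of 5 above it. Whether same-numbered libraries share more than a number was not tested. With a replicate block 2 members were higher and 1 lower than in Con at 6 weeks, 1 higher and 4 lower than in NCAC, and at 8 weeks 2 were higher than in Con and 3 higher than in NCAC. Limits of these data are the unknown depth, reads that near-identical class I genes may share, alleles that may differ from the reference, and 5 libraries in all groups but 1.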
